A study of Arabidopsis thaliana with 16 samples.

Results

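The response of *A. thaliana* leaves to feeding by leafminer larvae was set against the response of undamaged leaves to 48 h of Lima bean volatiles, by subtracting one response from the other for each probe set. The feeding response was the leafminer damaged samples minus the healthy samples, the volatile response was the volatiles 48h samples minus the control 48h samples, and the difference of responses was the former minus the latter. The comparison used 12 of the 16 ATH1 arrays of the series, 3 in each of the 4 groups, and all 22746 probe sets left after 64 control probe sets were removed. A positive difference means that feeding moved the transcript further up, or less far down, than the volatiles did.

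All 4 groups were 4-week-old Col-0 plants labelled as leaf samples, and each sample held tissue from at least 8 plants. The methods describe the picking of leaves for the feeding experiment and, for the volatile experiment, only that the receiver plants were frozen, so the tissue taken may not have been the same. The control 48h plants received, through a jar system, air from healthy Lima beans for 48 h, and the volatiles 48h plants received air from Lima beans carrying larvae of the pea leafminer. The leafminer damaged samples were mined *A. thaliana* leaves collected at the second larval instar, and the healthy samples came from plants without larvae. The 2 experiments thus had separate controls, and they differ in the jar, possibly the tissue taken, the bean odor of the controls and the duration, which cannot be told apart from any difference in level between them. Separate samples are described for each group, but separate growth of their plants is not, so p-values measure the spread between these samples.

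Wounding and chewing of a leaf release fatty acids that lipoxygenases, allene oxide synthase and 12-oxophytodienoate reductase convert to jasmonates, and jasmonates together with ethylene turn on storage proteins, defensins, thionins and enzymes of volatile synthesis. A neighbor exposed to herbivore-induced plant volatiles (HIPVs) is not wounded, and its own jasmonate and ethylene pathways may be triggered weakly or made ready for later attack. A comparison of both responses in one receiver species asks which transcripts answer to damage beyond what the odor alone evokes.

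Signals are log2 values of MAS5 intensities after quantile scaling, with intensities below 1 set to 1, so that a signal of 0 is the lowest value a probe set can take. The median signal over all values was 4.61. A probe set was called when limma's adjusted p was at most 0.05 and the change at least 2-fold. Errors of differences are moderated standard errors (SE), with a median of 0.37 for the difference of responses. Before scaling, the medians of the 12 arrays lay between 20.1 and 30.3 on the linear scale. The mesophyll marker LHCB4.1, a chlorophyll-binding protein, had mean signals between 11.37 and 11.70 in the 4 groups, and the guard cell factor FAMA (FMA) had means between 4.92 and 5.33. The trichome regulator TRY had means of 4.96 and 3.88 in healthy and damaged leaves against 1.88 in both groups of the volatile experiment. No flower, root or phloem marker of the lists matched a named probe set. In bulk leaf samples, fewer cells of a type and less RNA per cell cannot be told apart.

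The feeding response exceeded the volatile response for 1885 probe sets (8.29% of those tested) and fell below it for 1922 (8.45%), 16.7% in all. Feeding itself up-regulated 2229 probe sets (9.8%) and down-regulated 2383 (10.5%), 20.3% in all, whereas the volatiles up-regulated 184 (0.809%) and down-regulated 132 (0.58%) at 48 h, 1.39% in all. Leaving out 1 array moved the volatile counts to between 89 and 298 up and between 59 and 327 down, with most calls without control 48h replicate 1. The median of all differences was -0.07. Among the 1885 differences called higher, 1561 had a called rise with feeding and no called volatile response. Among the 1922 called lower, 1492 had a called fall with feeding and no called volatile response. Of the 184 probe sets that the volatiles up-regulated, 79 were called lower, 24 higher and 81 were not called. The responses share these 12 arrays with their difference, so these counts describe how the differences are made up and are no separate evidence.

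**Figure D1:**
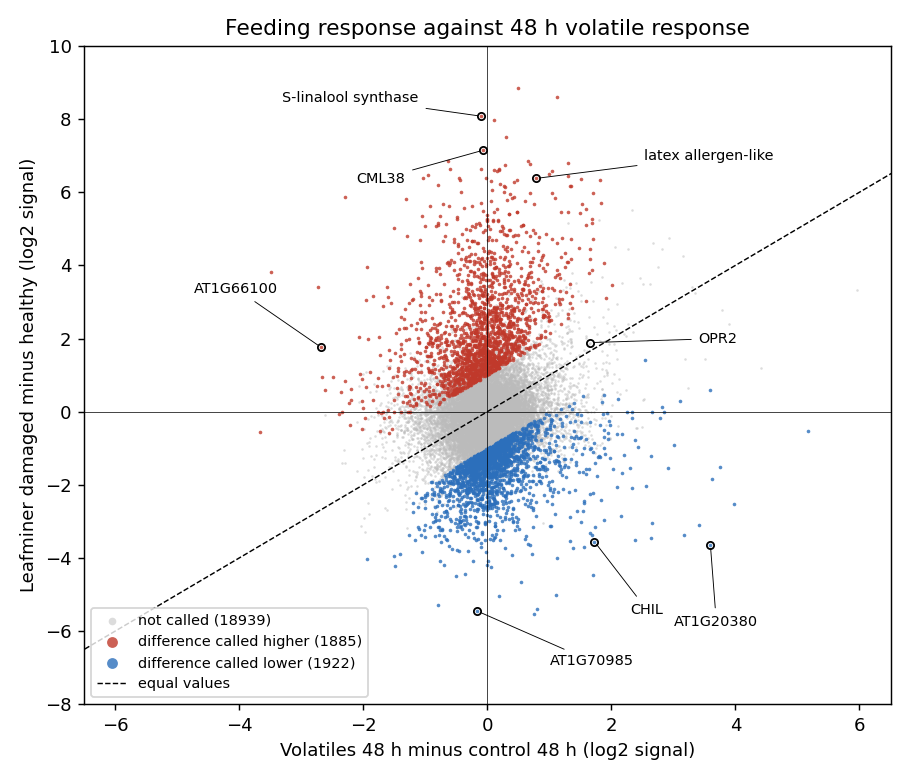
Each point is 1 of 22746 probe sets, with the 48 h volatile response on the x axis and the feeding response on the y axis, both as differences of mean log2 signal (n = 3 arrays a group). Red points (1885) were called higher and blue points (1922) lower, and the dashed line marks equal responses. Most called points lie far from 0 on the feeding axis and near 0 on the volatile axis, with AT1G20380, CHIL and AT1G66100 among those displaced along both.

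The controls of the experiments started from unlike levels. Healthy and control 48h leaves differed for 3879 probe sets (17.1%), with 1880 (8.27%) higher and 1999 (8.79%) lower in healthy leaves, and damaged and volatile-treated leaves for 4349 (19.1%). Of the 3807 called differences, the treated levels differed in the same direction for 1803 (47.4%) and the control levels in the opposite direction for 1532 (40.2%). For 1063 the control means lay within 0.5 log2 units of each other, and for 927 the treated means did. Many genes below are therefore given with their levels in all 4 groups. A difference given without levels does not show which groups were unlike.

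**Figure D2:**
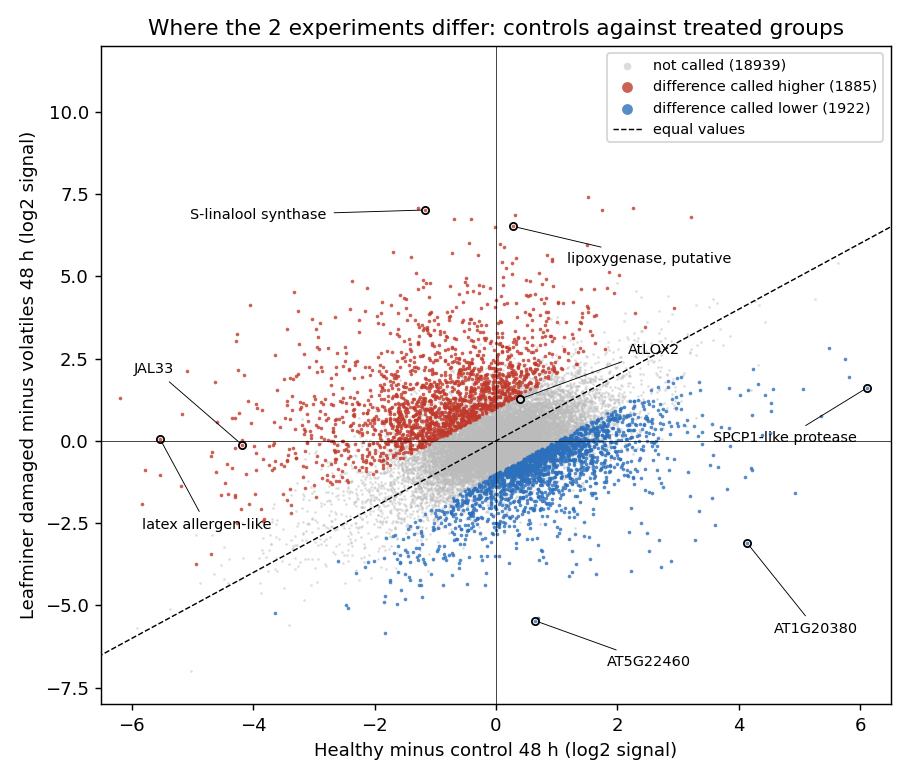
Each point is 1 probe set, with the difference between the control groups (healthy minus control 48 h) on the x axis and that between the treated groups (leafminer damaged minus volatiles 48 h) on the y axis, in log2 signal. The distance from the dashed line is the difference of responses. The putative lipoxygenase differs in the treated groups alone, the latex allergen-like gene in the control groups alone, and AT1G20380 in both.

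The enzymes that make jasmonates fell into those with a larger response to feeding and those called in both responses. The 35 probe sets given here by names from the study's primer table were chosen by the study on these arrays, so their counts are no independent evidence. Of these 35, 21 were called higher and 6 lower, against 8.29% and 8.45% of all probe sets, with a median difference of 2.11. The largest contrast in this pathway was a putative lipoxygenase, an enzyme that adds oxygen to linolenic acid. Its signals were 3.83, 3.76 and 4.61 in healthy leaves and 10.23, 10.26 and 10.60 in damaged leaves. In the volatile experiment they were 4.36, 3.21 and 3.78 in the controls and 3.85, 4.09 and 3.59 after exposure. The damaged samples stood apart from the other 9, which overlapped. The difference of responses was 6.23 ± 0.41 (75.1-fold, adjusted p = 2.2e-06).

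Allene oxide synthase (AOS) and OPR3, which carry out the next committed steps toward jasmonic acid, were also up-regulated further by feeding. OPR3 signals were 7.96, 8.05 and 8.20 in healthy leaves and 11.35, 11.41 and 11.53 in damaged leaves. They were 8.22, 7.56 and 7.54 in control 48h leaves and 8.30, 8.51 and 8.22 in volatile-treated leaves. The control levels overlapped, the damaged samples lay above all others, and the difference was 2.79 ± 0.23 (adjusted p = 8.9e-06). AOS rose from a mean of 8.61 to 10.97 with feeding and went from 7.25 to 7.57 with the volatiles, a difference of 2.03 ± 0.26 (adjusted p = 0.00018), and its healthy level was already above the control 48h level. OPCL1, a ligase that prepares the jasmonate precursor for shortening in the peroxisome, went from 6.42 to 9.51 with feeding and from 7.19 to 7.50 with the volatiles, a difference of 2.78 ± 0.24.

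AtLOX2 and OPR2 answered to both treatments. AtLOX2, the chloroplast lipoxygenase of the wound response, had signals of 9.82, 9.45 and 10.03 in healthy leaves, 12.03, 11.87 and 11.87 in damaged leaves, 9.66, 8.99 and 9.48 in control 48h leaves and 10.53, 10.85 and 10.58 in volatile-treated leaves. Each treated group lay above its controls without overlap, and both responses were called. Their difference was 0.88 ± 0.26 (adjusted p = 0.032), under the 2-fold limit. For OPR2, a reductase related to OPR3, the means were 7.11 and 9.0 in the feeding experiment and 7.12 and 8.78 in the volatile experiment. Its difference of responses was 0.23 ± 0.34 (adjusted p = 0.70).

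Genes of volatile synthesis showed large differences. The probe set that the primer table names S-linalool synthase matched no single gene of the annotation, so its product was not checked. It had signals of 0.96, 3.95 and 2.3 in healthy leaves and 10.58, 10.33 and 10.54 in damaged leaves. Its signals were 4.74, 2.86 and 3.11 in control 48h leaves and 3.38, 3.66 and 3.37 in volatile-treated leaves. High signal was confined to the 3 damaged samples among these 12, and the difference was 8.18 ± 0.98 (adjusted p = 0.00012). BSMT1, a methyltransferase that makes methyl salicylate and methyl benzoate, went from 2.67 to 8.83 with feeding and from 0.42 to 1.75 with the volatiles, a difference of 4.83 ± 1.01 (adjusted p = 0.0044). CHAT, which acetylates the green leaf alcohol hexenol, went from 1.57 to 5.46 and from 1.49 to 1.05, a difference of 4.34 ± 1.24 (adjusted p = 0.025) that was not called without any one of control 48h replicate 2, volatiles 48h replicate 3, healthy replicate 1 or leafminer damaged replicate 1, with values from 3.65 to 4.00 there. The jasmonate methyltransferase JMT, the remaining measured member of the list, had a difference of 1.26 ± 0.60 (adjusted p = 0.17), with means of 4.34 and 6.54 against 1.65 and 2.59. Among these 3 of the list's 10 members, 2 were called higher and none lower. Their median was 4.34 against -0.07 for all probe sets, of which 16.7% were called. With intensities below 16 raised to 16, CHAT had a difference of 1.46 and JMT of 2.14 (adjusted p = 0.00015), all 3 were called and the median was 2.14. The hydroperoxide lyase (HPOL) like protein, related to the enzyme that splits lipid hydroperoxides into leaf aldehydes, had means of 6.95 and 8.78 against 4.50 and 5.31, and its difference of 1.02 ± 0.22 was near the 2-fold limit, below which it fell to between 0.91 and 0.99 without any one of control 48h replicates 1 and 2, volatiles 48h replicate 1 and leafminer damaged replicates 2 and 3.

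**Figure D3:**
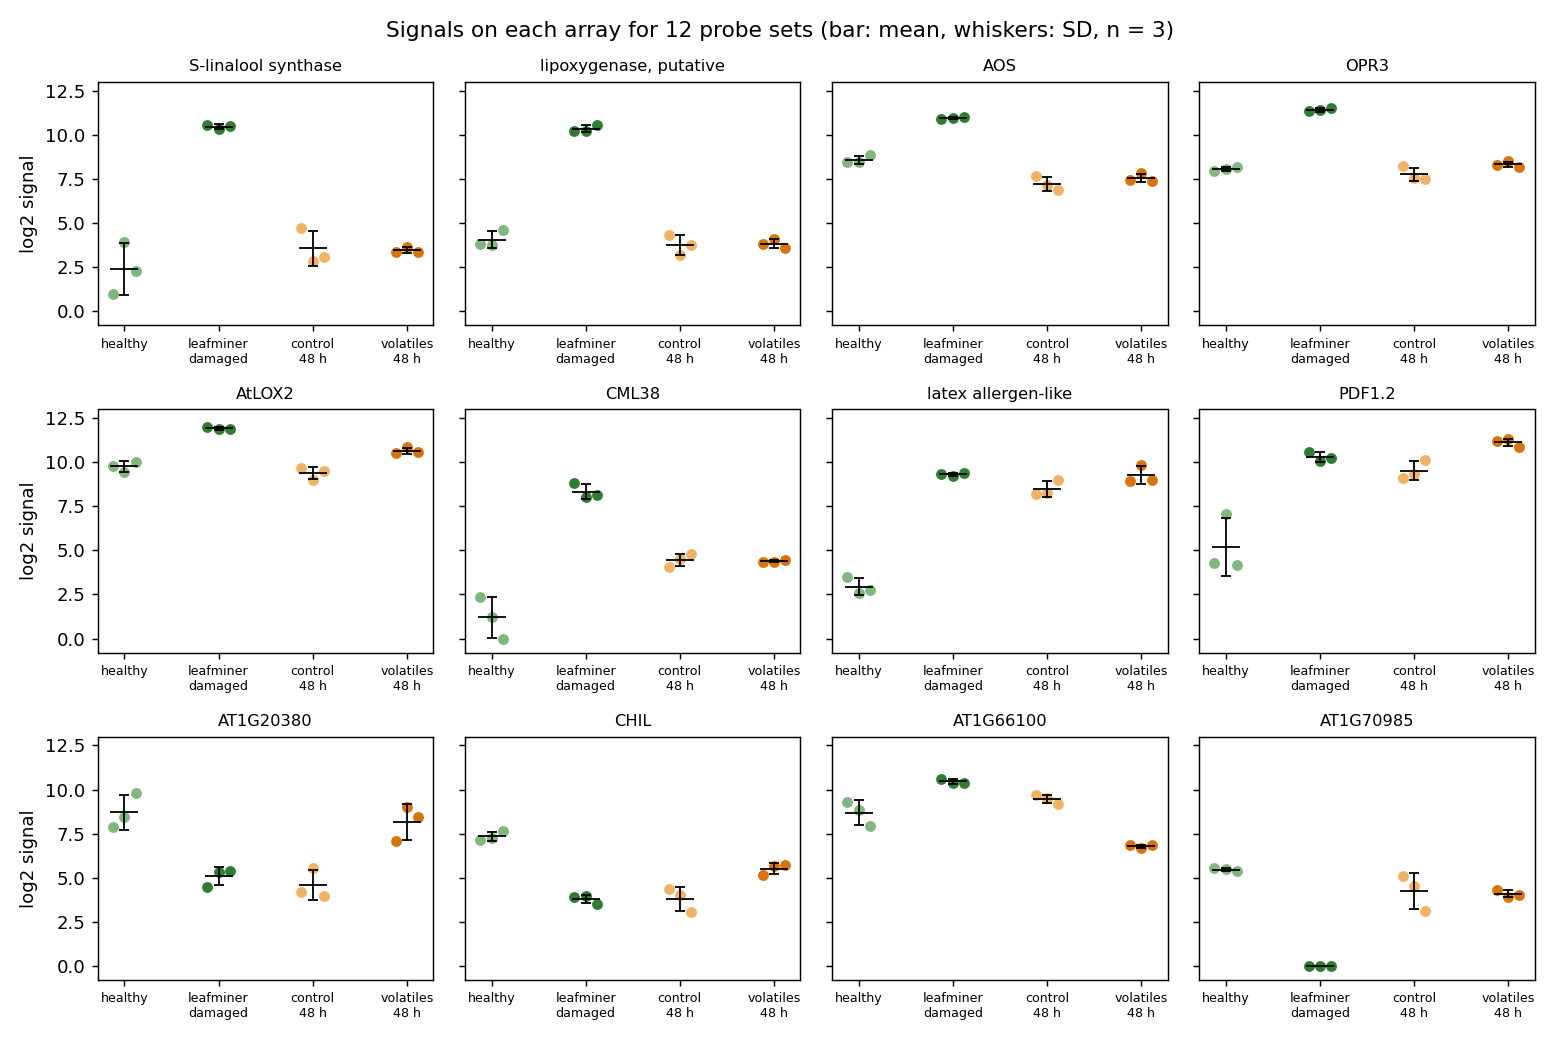
Log2 signals of 12 probe sets on each of the 12 arrays, with group means (bars) and SD (whiskers, n = 3). S-linalool synthase, the putative lipoxygenase and OPR3 are highest in the damaged leaves without overlap, AtLOX2 rises in both experiments, and the latex allergen-like gene and PDF1.2 begin at high levels in the control 48h leaves.

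Several genes started from like levels in both control groups and had a called response with feeding alone. The difference of a cytochrome P450-like protein, one of a large class of oxidizing enzymes, was 5.75 ± 0.27 (adjusted p = 4.2e-07), with signals of 3.64, 3.53 and 3.74 in healthy, 9.50, 9.67 and 9.76 in damaged, 3.29, 3.34 and 3.89 in control 48h and 3.70, 4.07 and 3.53 in volatile-treated leaves. The damaged samples stood above the other 9, which overlapped. UGT76E12, a glycosyltransferase, had means of 0.93 and 7.67 against 1.37 and 1.65, and its difference was 6.46 ± 1.25 (adjusted p = 0.0029). Of the genes known here by locus alone, AT1G66760 went from 5.82 to 10.51 with feeding and from 6.11 to 5.78 with the volatiles. AT1G64380 went from 2.52 to 7.63 and from 2.18 to 2.07. The other 5 of the 8 highest differences with like controls were AT4G27654, AT2G22760, AT5G24080, AT1G61610 and AT2G15780, with differences between 4.99 and 6.51 and mean signals up to 2.09 in the groups other than the damaged leaves. With intensities below 16 raised to 16, these differences were 2.98, 1.96, 2.28, 3.32 and 1.46, and all were still called. AT4G27654 also went from 1.98 to 0.48 with the volatiles, without a call.

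On the other side, genes with like control levels fell in mined leaves, with no called volatile response. AT4G18970 had signals of 7.73, 7.44 and 7.54 in healthy and 3.69, 4.34 and 5.67 in damaged leaves, and of 7.98, 7.93 and 7.23 in control 48h and 7.83, 7.63 and 7.78 in volatile-treated leaves. The damaged samples were below all others and the remaining groups overlapped, with a difference of -3.03 ± 0.53 (adjusted p = 0.0016). AT1G04040 had means of 8.54 and 5.62 against 8.18 and 8.46, a difference of -3.21 ± 0.59. The remaining 6 of the 8 lowest of this kind, AT5G48360, AT1G50110, AT1G72230, AT5G48460, AT5G58520 and AT2G36885, had differences between -4.19 and -2.76, healthy means between 3.89 and 5.36 and damaged means between 0.64 and 2.63. With intensities below 16 raised to 16, their differences lay between -1.39 and -0.76, and AT5G48360, AT5G48460 and AT5G58520 were not called. GSTU27, a tau class glutathione transferase, had means of 7.19 and 4.82 against 7.23 and 7.33, a difference of -2.47 ± 0.33 (adjusted p = 0.00025). PDF2.3 (LCR68), a defensin-like peptide, had means of 8.28 and 6.36 against 8.52 and 8.71, a difference of -2.11 ± 0.36 (adjusted p = 0.0011).

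The largest differences in either direction included genes whose controls were unlike. CML38, a calmodulin-like calcium sensor, had signals of 2.35, 1.23 and 0 in healthy and 8.84, 8.02 and 8.16 in damaged leaves, and of 4.07, 4.52 and 4.79 in control 48h and 4.36, 4.35 and 4.46 in volatile-treated leaves. Healthy leaves were lowest, damaged leaves highest, and both groups of the volatile experiment lay together between them. The difference was 7.22 ± 0.72 (adjusted p = 3.2e-05), and the damaged level was 3.95 above the volatile-treated one. CML39 (AT1G76640) was at the floor on all 3 healthy arrays and reached 6.40 in damaged leaves, against 1.70 and 0.65, a difference of 7.44 ± 1.01. AT2G22880 was also at the floor in healthy leaves and reached 7.96, against 3.33 and 3.43, a difference of 7.86 ± 0.88. JRG21, a gene known for its regulation by jasmonate, went from 3.32 to 9.92 with feeding and from 5.73 to 5.92 with the volatiles, a difference of 6.41 ± 1.1. AT1G20030, AT4G12500 and AT4G16000 had differences between 6.40 and 6.42, with damaged levels above volatile-treated ones by 2.16, 3.75 and 1.78.

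Where a group sits at the floor, the size of the difference depends on where the floor is set. With a floor of 16 on the linear scale, the differences were 4.09 for AT2G22880, 2.40 for CML39 (AT1G76640), 4.41 for CML38, 3.67 for UGT76E12, 5.26 for JRG21 and 6.73 for S-linalool synthase, and all 6 were still called. Among the 117 named probe sets that were called, the floor of 16 shrank 47 differences by over 1.5 times, and 14 of these lost their call. The largest difference among the primer table names, 8.35 ± 1.15 for an AP2 domain containing protein, started from the floor on every healthy array and was 4.84 with a floor of 16.

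Among the lowest differences, ZIP9, a transporter of the zinc- and iron-regulated family, had signals of 4.60, 6.69 and 7.66 in healthy and 3.25, 3.28 and 3.32 in damaged leaves. Its signals were 3.17, 4.12 and 3.60 in control 48h and 4.94, 7.47 and 6.44 in volatile-treated leaves. Healthy leaves overlapped volatile-treated leaves, and damaged leaves overlapped control 48h leaves, with a difference of -5.69 ± 1.03 (adjusted p = 0.0019). AT5G22460 had means of 5.96 and 0.96 against 5.32 and 6.42, and AT1G60590 had means of 8.19 and 3.54 against 4.09 and 4.62. AT1G70985 was at the floor on all 3 damaged arrays, with a healthy mean of 5.45 and means of 4.25 and 4.09 in the volatile experiment, and its difference of -5.29 shrank to -1.03 with a floor of 16. SAG29 (SWEET15), a sugar transporter of senescing leaves, had a difference of -5.26 ± 1.44 (adjusted p = 0.020) although neither response was called alone, with means of 5.12 and 3.62 against 1.31 and 5.06. It was -4.65 and not called without control 48h replicate 3, and -2.36 (adjusted p = 0.060) with a floor of 16. AT5G20790, AT1G49200 and AT5G12110 had differences between -6.09 and -5.12. Their treated levels differed by -5.39, -3.98 and -0.90, the last without a call. For AT5G12110, healthy leaves were 4.22 above control 48h leaves.

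In 38 probe sets the responses were both called and ran in opposite directions, 12 up with feeding and down with the volatiles and 26 the reverse. This number varied with single arrays, from 112 without control 48h replicate 1 to 18 without volatiles 48h replicate 3. AT1G20380 had signals of 7.89, 8.42 and 9.82 in healthy and 4.48, 5.34 and 5.38 in damaged leaves, and of 4.19, 5.57 and 3.96 in control 48h and 7.05, 9.02 and 8.43 in volatile-treated leaves. Healthy and volatile-treated leaves overlapped at high signal and damaged and control 48h leaves at low signal, and the difference was -7.24 ± 0.82 (adjusted p = 8.0e-05). CHIL, a chalcone isomerase-like protein that aids flavonoid synthesis, fell by 3.55 with feeding and rose by 1.72 with the volatiles, from 7.34 to 3.79 and from 3.79 to 5.51. LHCB4.3, a minor light-harvesting protein, fell from 8.21 to 5.06 and rose from 5.82 to 7.56, a difference of -4.88 ± 0.49.

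AT1G66100 ran the other way from nearer starting levels. Its signals were 9.31, 8.84 and 7.92 in healthy, 10.61, 10.40 and 10.36 in damaged, 9.66, 9.52 and 9.20 in control 48h and 6.84, 6.66 and 6.82 in volatile-treated leaves. The 2 control groups overlapped, damaged leaves lay above both and volatile-treated leaves below both, with a difference of 4.45 ± 0.37 (adjusted p = 1.0e-05). ZW9 had means of 6.91 and 9.49 against 7.71 and 6.32, a difference of 3.97 ± 0.23, and AT2G32150 had means of 7.08 and 10.21 against 8.18 and 6.57. AT3G62950, with means of 0.78 and 4.2 against 4.94 and 2.21, and AT3G15650, with 5.83 and 3.40 against 3.11 and 4.67, complete the 8 largest opposite responses. In 30 of the 38 the control levels also differed, 9 of the 12 and 21 of the 26.

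A contrasting set reached the same level in both treated groups although the responses differed. The gene named as similar to a latex allergen of *Hevea brasiliensis* had signals of 3.48, 2.61 and 2.73 in healthy and 9.35, 9.23 and 9.37 in damaged leaves, and of 8.19, 8.23 and 9.0 in control 48h and 8.94, 9.84 and 8.98 in volatile-treated leaves. Healthy leaves alone were low. The difference of responses was 5.59 ± 0.45 (adjusted p = 9.1e-06), whereas the treated means of 9.32 and 9.26 differed by 0.06 ± 0.32. JAL33, a jacalin-related lectin, had signals of 4.45, 4.06 and 3.43, then 7.30, 7.98 and 8.14 with feeding, and 8.18, 8.19 and 8.09, then 7.86, 7.87 and 8.07 with the volatiles. Its treated means of 7.81 and 7.93 differed by -0.13 without a call, healthy leaves alone were low, and the difference was 4.05 ± 0.34. GAT1_2.1, a glutamine amidotransferase, was at the floor in healthy leaves and had treated means of 4.34 and 4.68. Its call was lost with a floor of 16. AT4G30650 and AT1G52200 shared this shape, with differences of 4.24 and 3.69. AT4G26790 and AT3G24460 were the reverse, with high signal in healthy leaves alone and differences of -4.21 and -4.02.

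The next 4 genes were chosen because both responses were called in one direction with a called difference between them. AT3G23550 went from 4.40 to 9.14 with feeding and from 8.07 to 9.28 with the volatiles, a difference of 3.54 ± 0.40 at near-equal treated levels. AT4G24350 went from 5.75 to 9.93 and from 6.60 to 7.94, and AT2G34810 from 6.38 to 10.26 and from 5.66 to 7.35, so that for these the damaged level was also the higher. AT4G19530 fell from 8.34 to 5.10 and from 6.78 to 5.75, a difference of -2.22 ± 0.34.

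Defense proteins of the jasmonate and ethylene pathways belonged largely to the genes with high controls in the volatile experiment. PDF1.2, an antifungal defensin used as a readout of combined jasmonate and ethylene signaling, had signals of 4.28, 7.09 and 4.19 in healthy and 10.59, 10.06 and 10.24 in damaged leaves, and of 9.09, 9.36 and 10.16 in control 48h and 11.20, 11.30 and 10.88 in volatile-treated leaves. Healthy leaves were lowest and volatile-treated leaves highest. The difference was 3.52 ± 0.92 (adjusted p = 0.016), while the treated levels differed by -0.83 without a call. PDF1.2b, another member of the list, had means of 7.16 and 10.55 against 9.93 and 11.21. Its difference of 2.12 ± 0.98 (adjusted p = 0.15) was not called. THI2.1, a thionin induced by jasmonate, had means of 1.63 and 6.89 against 5.36 and 7.05, a difference of 3.58 ± 0.63 (adjusted p = 0.0016), and its sister THI2.2 had means of 4.98 and 2.70 against 3.33 in both groups, a difference of -2.28 ± 0.57. Neither thionin was called with a floor of 16. In the list of defensins, PR proteins and thionins, 8 of 14 members matched a named probe set. PR-4, called higher, PDF2.3, called lower, and PR-1, not called, are outside these 8. Among the 8, 2 were called higher and 1 lower, with a median of 1.12 (37.5% called against 16.7% of all probe sets). Healthy leaves were below control 48h leaves for 5. With a floor of 16 the list had 1 call, higher, and a median of 0.29. The hevein-like PR-4 had means of 8.12 and 11.11 against 10.77 and 11.65, a difference of 2.11 ± 0.35. Vegetative storage protein Vsp1, a jasmonate-induced leaf protein, had means of 5.03 and 11.20 against 7.56 and 8.91, a difference of 4.81 ± 0.63 (adjusted p = 0.00020) with the damaged level the higher by 2.29.

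PR-1, the usual readout of salicylate signaling, did not separate the responses. Its signals were 7.07, 7.29 and 4.78 in healthy, 8.46, 7.43 and 7.11 in damaged, 6.98, 10.29 and 10.52 in control 48h and 10.71, 10.71 and 11.00 in volatile-treated leaves. Control 48h replicate 1 was far below the other samples of its group, and the difference was -0.25 ± 1.23 (adjusted p = 0.93), an error too wide to show that the responses were alike. Basic chitinase was up-regulated in both experiments, from 3.89 to 7.39 and from 6.77 to 9.29, with a difference of 0.98 ± 0.64 (adjusted p = 0.32) that became 1.53 and was called without control 48h replicate 1. In the list of chitinases, enzymes that split fungal and insect chitin, 6 of 10 members were measured. Of these, 4 were called higher and none lower, with a median of 1.96, against 8.29% and 8.45% of all probe sets. With a floor of 16, 4 were called higher and 1 lower. Of the members not called, AT2G43580 had a difference of -1.49 ± 0.87, with means of 1.59 and 4.00 against 1.35 and 5.25. AT2G43590 had one of 0.49 ± 0.39, with means of 4.47 and 6.89 against 7.22 and 9.15. AT1G02360 had the largest difference, 3.93 ± 0.53, with means of 2.69 and 5.73 against 4.50 and 3.61. CHI had a difference of 3.08 ± 0.88 (adjusted p = 0.024) whose call was lost without any one of control 48h replicates 2 and 3, volatiles 48h replicate 2, healthy replicates 1 and 3 and leafminer damaged replicate 1, with values from 2.51 to 3.04.

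Ethylene-linked factors were mixed. An ethylene-responsive element binding factor had means of 4.52 and 9.03 against 5.37 and 5.96, a difference of 3.92 ± 0.36 (adjusted p = 2.1e-05). An ethylene response factor had means of 3.17 and 6.13 against 6.61 and 7.94, so its difference of 1.63 ± 0.41 (adjusted p = 0.013) came with a lower level in damaged than in volatile-treated leaves, and was not called with a floor of 16. Ethylene responsive element binding factors 2 and 4 had differences of 0.30 ± 0.51 and 1.3 ± 0.56 and were not called.

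**Figure D4:**
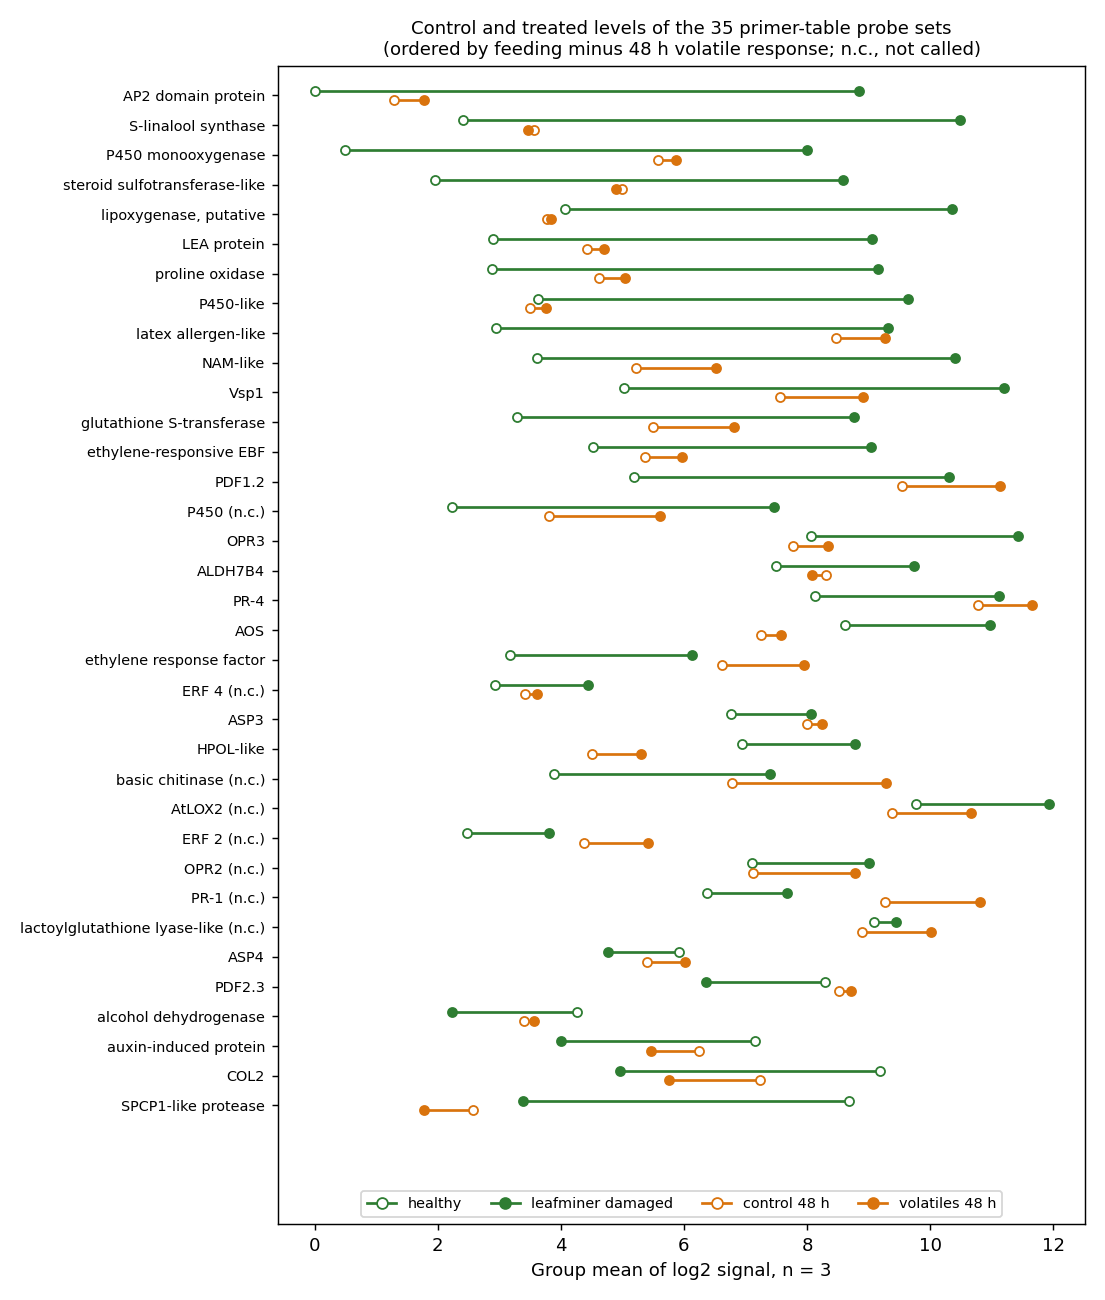
Group means of log2 signal (n = 3) for the 35 probe sets named in the study's primer table, ordered by the difference of responses, with open circles for controls and filled circles for treated groups. Green lines (feeding) run over longer distances than orange lines (48 h volatiles) for most names, AtLOX2, OPR2 and PR-1 are among the 8 not called, and the SPCP1-like protease falls with feeding from a healthy level far above both groups of the volatile experiment.

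Other primer table names with a larger feeding response were a cytochrome P450 monooxygenase (0.50 to 8.00 against 5.58 to 5.88), a steroid sulfotransferase-like protein (1.96 to 8.59 against 5.0 to 4.90), a NAM-like transcription factor (3.61 to 10.40 against 5.22 to 6.52) and a glutathione S-transferase (3.29 to 8.76 against 5.50 to 6.81). The probe set named cytochrome P450 alone had a difference of 3.43 ± 1.23 (adjusted p = 0.066). A late embryogenesis abundant protein (2.90 to 9.05 against 4.43 to 4.70) and the aldehyde dehydrogenase ALDH7B4 (7.49 to 9.74 against 8.30 to 8.08) were also called higher, the latter not without volatiles 48h replicate 3 or leafminer damaged replicate 1. The aspartate aminotransferases ASP3 and ASP4, enzymes of amino acid exchange, had differences of 1.06 ± 0.18 and -1.77 ± 0.30, and ASP3 was not called without leafminer damaged replicate 1. A putative alcohol dehydrogenase (AT1G32780) had a difference of -2.19 ± 0.44, lost with a floor of 16. Lower differences were also found for the cysteine proteinase similar to SPCP1 (AT2G27420), which fell from 8.69 to 3.39 with feeding and had means of 2.58 and 1.78 in the volatile experiment, a difference of -4.50 ± 0.77. COL2, a relative of the flowering-time gene CONSTANS, fell from 9.18 to 4.96 and had means of 7.23 and 5.75, a difference of -2.73 ± 0.54. An auxin-induced protein had means of 7.16 and 4.00 against 6.24 and 5.46, a difference of -2.38 ± 0.36. Lactoylglutathione lyase-like protein, an enzyme that detoxifies methylglyoxal, was called with the volatiles but not with feeding, from 8.89 to 10.01 and from 9.09 to 9.44, and its difference of -0.77 ± 0.27 (adjusted p = 0.061) was not called.

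Of the 10 list members for stress signaling of the early and touch type, 4 were measured. All 4 had larger feeding responses, with a median of 4.87, against 8.29% called higher among all probe sets. CML37 had a difference of 1.31 with a floor of 16, where all 4 were still called with a median of 3.50. Beside CML38, these were CML37 (0.17 to 5.25 against 4.13 to 4.14), the zinc finger repressor STZ (4.60 to 9.29 against 7.23 to 7.25) and WRKY53, a senescence and defense factor (4.71 to 7.82 against 4.70 to 5.21). For 3 of the 4, healthy leaves were below control 48h leaves, and WRKY53, with near-equal controls, had a difference of 2.59 ± 0.58 (adjusted p = 0.0065). Of 8 calmodulin-like genes, 3 were called higher and none lower, with a median of 0.69. Of 7 WRKY factors, 3 were called higher and none lower, namely WRKY53, WRKY22 (2.93 ± 0.45) and WRKY6 (1.76 ± 0.28), with a median of 0.79.

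Genes of cold and water deficit followed the same direction. LTI30, a dehydrin, had signals of 2.59, 1.88 and 0.21 in healthy, 7.68, 7.29 and 7.58 in damaged, 4.84, 4.26 and 3.91 in control 48h and 4.51, 4.94 and 4.63 in volatile-treated leaves. Healthy leaves were lowest, damaged leaves highest, and the difference was 5.59 ± 0.66 (adjusted p = 0.00010). COR15B and COR47 had differences of 3.59 ± 0.51 and 3.56 ± 0.33. COR15A rose in both experiments, from 6.06 to 10.51 and from 5.38 to 7.65, with a difference of 2.18 ± 0.73 (adjusted p = 0.051). Of the 23 list members, 4 were measured. Among these, 3 were called higher (8.29% of all probe sets were), and all 4 were higher in damaged than in volatile-treated leaves. Among 10 LEA proteins and dehydrins, hydrophilic proteins of drying tissue, 4 were called higher and none lower, with a median of 1.81. AtLEA4-1 had a difference of 5.90 ± 0.91 that became 1.32 with a floor of 16, below COR15B and COR47 at 3.56 each, and the family median was 0.68 there with 3 called.

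In the amino acid breakdown list, 4 of 9 members were measured. The difference of responses was called higher for 3 of the 4 (8.29% of all probe sets), and feeding up-regulated 2 of them. Proline oxidase (AT5G38710), which starts proline breakdown in mitochondria, had signals of 2.76, 3.28 and 2.60 in healthy, 9.26, 9.08 and 9.12 in damaged, 4.68, 4.43 and 4.73 in control 48h and 4.77, 5.44 and 4.91 in volatile-treated leaves, a difference of 5.85 ± 0.39 (adjusted p = 2.3e-06). The damaged samples were far above the rest. MCCA, a subunit of the leucine-degrading methylcrotonyl-CoA carboxylase, went from 5.08 to 6.00 and from 7.76 to 6.00, so that its difference of 2.68 ± 0.60 rested on unlike controls and a called fall with the volatiles. IVD, the next enzyme upstream, had a difference of 1.96 ± 0.58 (adjusted p = 0.029) whose call was lost without any one of control 48h replicate 2, volatiles 48h replicates 1 and 3, healthy replicates 1 and 3 and leafminer damaged replicates 1 and 2, with values from 1.89 to 1.99. MCCB had a difference of 0.22 ± 0.29. All 4 were lower in healthy than in control 48h leaves.

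Among the 4 measured of the 19 members of the phenylpropanoid list, no difference was called (16.7% of all probe sets were), while the volatile response was called for 2. UF3GT, which adds a sugar to anthocyanins, had signals of 3.77, 2.02 and 1.06 in healthy, 3.85, 3.48 and 3.08 in damaged, 2.50, 1.91 and 0.28 in control 48h and 5.03, 6.70 and 6.22 in volatile-treated leaves. Volatile-treated leaves were above the other 9 samples. The difference was -3.23 ± 1.12 (adjusted p = 0.057), with a called volatile response of 4.42. DFR, dihydroflavonol reductase, had means of 2.1 and 3.53 against 3.35 and 6.86, a difference of -2.08 ± 1.05 (adjusted p = 0.20) and a called volatile response. Of the 4 differences, all were below 0 with a median of -2.35, and 3 of 4 were called lower in damaged than in volatile-treated leaves. With a floor of 16, the differences of UF3GT, DFR and AT4G14090, -1.98, -2.71 and -1.90, were called lower, that is 3 of the 4. Outside this list, CHIL was called lower as given above. UGT78D2, a flavonoid glucosyltransferase named after its values were seen, was also called lower, at -2.38 ± 0.24 (adjusted p = 3.8e-05). Chosen this way, it is no support for the list. Its means were 7.75 and 6.26 against 5.69 and 6.58. In both genes healthy leaves were highest, whereas volatile-treated leaves were highest for the 4 list members. UGT78D3 had a difference of -0.56 ± 0.87 and was not called.

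Detoxification genes showed no common direction in the difference of responses. Of 6 measured members among the 18 in the list, 1 was called, lower (16.7%, as among all probe sets), and the median was 0.04. In level, 4 of the 6 were called lower in damaged than in volatile-treated leaves (9.83% of all probe sets were) and none higher. The median of these level differences was -2.38. The called member, the glucosyltransferase UGT73C1, was at the floor on all 6 arrays of the feeding experiment and had means of 0.65 and 2.99 in the volatile experiment. With a floor of 16 its difference was 0, no member was called and the list median was -0.65. UGT73B5 and UGT73B4, related enzymes that glycosylate stress metabolites, had differences of 1.04 ± 0.43 and 0.86 ± 1.19. Of 51 UGT glycosyltransferases matched by gene name, 8 were called higher and 5 lower (25.5%), with a median of 0.13. Of 23 cytochromes P450 matched in the same way, 4 were called higher and 2 lower (26.1%), with a median of 0.08. The primer table's P450-like protein and P450 monooxygenase, both called higher, and its cytochrome P450, not called, lie outside these 23. Of 14 glutathione transferases matched by gene name, none was called higher and 2 lower, GSTU27 and GSTU23. This share of 14.3% was near that of all probe sets, and the median was -0.74. GSTU23, at -2.23 ± 0.33, became -0.48 and was not called with a floor of 16, where the median was -0.11. The glutathione S-transferase of the primer table matched no single gene, so it lies outside these 14, and it was called higher.

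Growth genes differed in part. GH3.3, an enzyme that conjugates auxin to amino acids, had means of 1.77 and 6.54 against 5.13 and 5.17, a difference of 4.73 ± 0.92 (adjusted p = 0.0029), and its relative WES1 (GH3.5) a difference of 2.41 ± 0.68 (adjusted p = 0.024) whose call was lost without any one of control 48h replicates 2 and 3, volatiles 48h replicates 1 and 3, healthy replicate 2 and leafminer damaged replicate 1, with values from 1.96 to 2.35. HAT2, an auxin-induced homeobox factor, had means of 6.96 and 5.47 against 6.20 and 5.81, a difference of -1.09 ± 0.19 that was not called without volatiles 48h replicate 3. Of the 3 measured among 14 auxin list members, 1 was called higher and 1 lower (median 0.84), against 8.29% and 8.45% of all probe sets. Of 12 Aux/IAA, GH3 and SAUR genes matched by gene name, 3 were called higher and none lower (25% called, median -0.10). Of 29 expansins and xyloglucan enzymes, proteins that loosen the wall, 4 were called higher and 3 lower (24.1% called, median -0.14). XTH18 and EXLA1 had differences of 3.81 and 3.32, and EXLA3 one of 3.3 that was 0 and not called with a floor of 16. EXLB1 and XTH32 had differences of -2.79 and -2.47. Damaged minus volatile-treated levels were 1.97 for XTH18, 2.14 for EXLA1, -2.07 for EXLB1 and -0.52 for XTH32.

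Few photosynthesis genes of the nucleus matched a named probe set, and those for light harvesting and photosystems differed little apart from LHCB4.3. Of 7 light-harvesting and photosystem proteins, LHCB4.3 alone was called (14.3% against 16.7% of all probe sets), and the median was 0.07. LHCB4.2 had a difference of 0.02 ± 0.15. In the Calvin cycle, SBPASE, a phosphatase that regenerates the carbon acceptor, had means of 10.80 and 9.51 against 9.94 and 9.83, a difference of -1.18 ± 0.35 (adjusted p = 0.029) whose call was lost without any one of control 48h replicate 3, volatiles 48h replicates 2 and 3, healthy replicates 1 and 3 and leafminer damaged replicate 1, with values from -1.21 to -0.87. Phosphoribulokinase (PRK) had a difference of -0.92 ± 0.25 (adjusted p = 0.022), under the 2-fold limit, and rubisco activase (RCA) one of -0.08 ± 0.18. Of the 13 list members 3 were measured, and 1 of these was called, with a median of -0.92. Lycopene cyclase (LYC), of carotenoid synthesis, had means of 8.90 and 7.02 against 7.50 and 6.96, a difference of -1.33 ± 0.20 (adjusted p = 0.00065). It was 1 of 2 measured among the 14 members of the chlorophyll and carotenoid list, and the other was not called.

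Chloroplast-encoded transcripts differed in level between the experiments more than in response. Of 69 such probe sets, 37 were called higher in healthy than in control 48h leaves and 46 higher in damaged than in volatile-treated leaves, and none lower in either comparison. Of all probe sets, 8.27% and 9.29% were called higher in these comparisons. Their median level was 9.69 in healthy, 9.05 in damaged, 7.63 in control 48h and 6.76 in volatile-treated leaves. The difference of responses was called for 3 of the 69, all higher (4.35% against 8.29% of all probe sets), with a median of 0.23. The part of this level gap in other results was not tested.

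**Figure D5:**
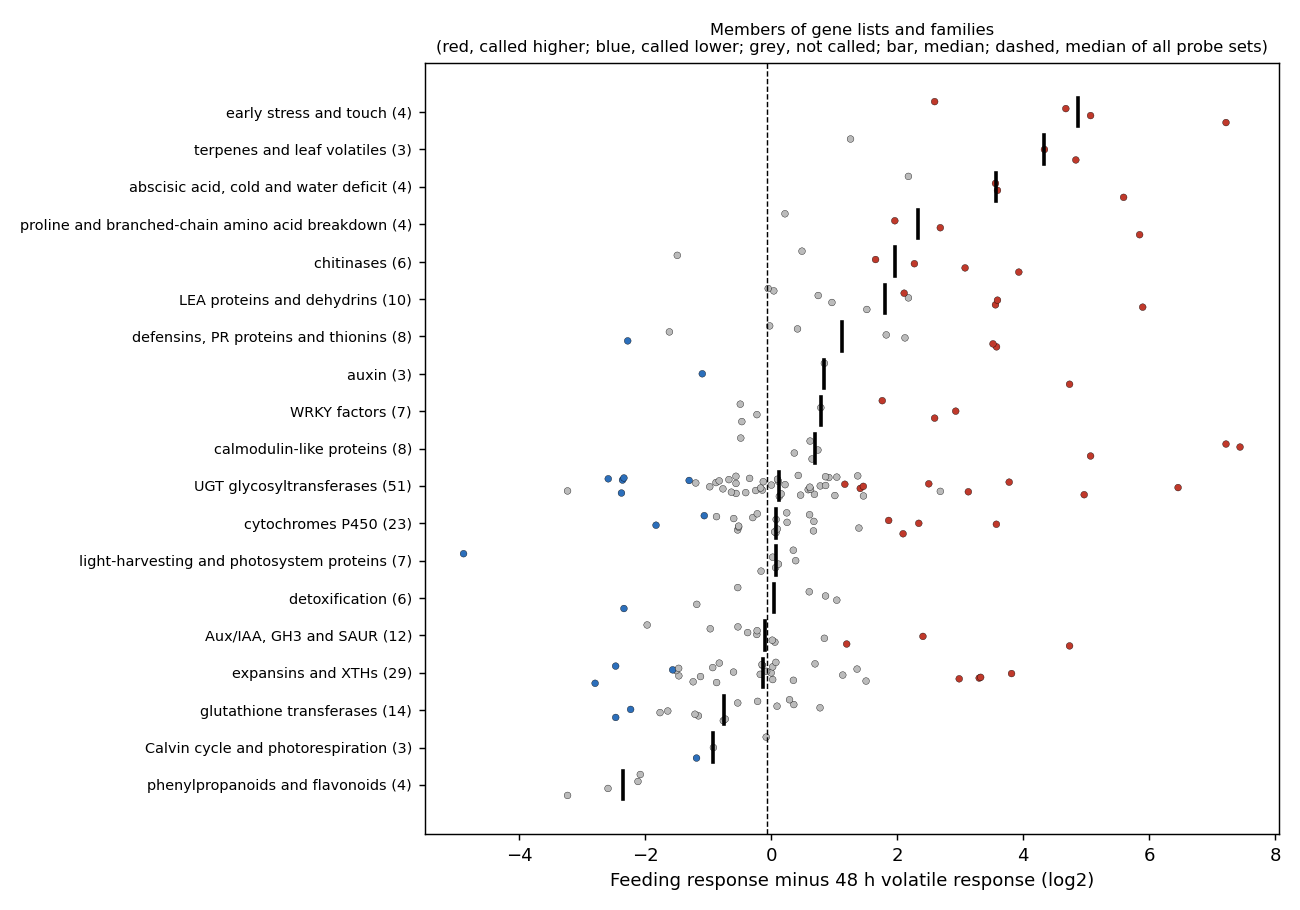
Difference of responses (log2) for each measured member of the gene lists and families with 3 or more members, with red for called higher, blue for called lower, grey for not called and a bar for the median of each row. Early stress genes lie at the top with a median of 4.87 and the phenylpropanoid list at the bottom with -2.35, and the dashed line marks the median of all probe sets, -0.07.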

How the data were processed

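The authors deposited one MAS5 signal intensity per probe set and array on a linear scale, hybridized to the Affymetrix ATH1 array. The scaling target, and whether the GeneSpring normalization of the methods was applied, are not given in the sources used here. The 16 arrays were quantile scaled, intensities below 1 were raised to 1 (11.7% of each scaled array lay at this floor) and log2 was taken. limma 3.58.1 in R 4.3.3 fitted 6 group means to 22746 probe sets with a variance trend, the code having been tested on simulated data, and adjusted p-values within each contrast by Benjamini and Hochberg. The number of arrays limits precision. The methods' test, Significance Analysis of Microarrays with q at most 0.05 and a 2-fold limit, was not repeated here.

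In the platform annotation given, 13513 of the tested probe sets stand for a single gene, 503 for several and 8730 have no entry, and 13436 were found in the RefSeq table of TAIR10.1, used for names only. No coordinates or sequences are given. Named were the 10 largest called differences in each direction, 8 in each direction with control means within 0.5, 8 with opposite calls, 6 with treated means within 0.5, 4 with calls in one direction, all primer table probe sets, and up to 4 members of each list or family described. A named gene had to be called, to match 1 gene and to reach the overall median of 4.61 in its highest group, which did not apply to primer table names and list members. Of 351 members in 30 gene lists, 63 matched a named probe set, and 10 lists had at least 3. Members called measured are the matched ones, so list counts do not cover the other members. The members and lists were chosen with earlier results of these data known, and the 18 families were set from gene names after the arrays were seen. Probe sets without a matched gene are outside the families. Plots used matplotlib 3.10.9 in Python 3.11.15.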

Additional observations from a re-analysis of the deposited data

How the results depend on the processing

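The 24 alternatives were no scaling, median scaling, quantile scaling within the contrast, adding 16 to each value ahead of log2, a floor of 16, the upper 60% of probe sets, a fit on the 12 arrays, the replicate number as a block, no variance trend, array weights, no fold threshold, a fold of 1.5 and the omission of each of the 12 arrays. The count called lower was 1192 without scaling and 1154 with log2 of the value plus 16, and stayed within 1.5 times of 1922 elsewhere, as did the count called higher everywhere. Without scaling, the split was 62.7% higher against 49.5%, and the median difference moved from -0.07 to 0.06. Called differences with unlike treated levels numbered 1115 with log2 of the value plus 16 and 2976 without a fold threshold. Those with unlike control levels numbered 880 with log2 of the value plus 16, 961 with the replicate block, 2725 without a fold threshold and 2436 at a fold of 1.5.

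Leaving out single arrays gave 1625 to 2202 called higher, 1584 to 2340 called lower, 1559 to 1977 with unlike treated levels and 1277 to 1947 with unlike control levels. Without control 48h replicate 1, the volatiles up-regulated 298 and down-regulated 327 probe sets, against 184 and 132 with it. Array weights gave 580 and 652, with 127 opposite responses. Deviations of same-numbered samples correlated between -0.03 and 0.05, and those of differently numbered samples between -0.07 and 0.03. In the feeding experiment every same-numbered value was above the differently numbered ones. These small values do not settle whether the numbers pair the samples. With the replicate number as a block, 1739 were called higher and 1703 lower, and opposite responses numbered 17. Of 117 named called differences, 91 were called in every alternative run for them and none changed sign. The 2 fold alternatives were not run for single genes. The low signals near the floor limit the size, more than the direction, of the largest differences. Among uncalled probe sets, 3714 had an unadjusted p under 0.05.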
